A study of Mus musculus with 12 samples.

Results

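The comparison set wild-type (WT) iNKT cells directly against WT γδ T cells, both sorted from the mouse thymus. It used 3 of 11 libraries in the deposited table, 1 of WT iNKT cells and 2 of WT γδ cells, chosen by the column names alone, and all 11815 genes. The WT cells came from B6 mice aged 4 to 5 weeks. WT iNKT cells were sorted as CD1d tetramer-positive and TCRβ+, and WT γδ cells as TCRγδ+ CD3+, in equal total numbers. The γδ sort was not limited to an innate-like subset. Each library pooled 2 to 3 mice, so the spread between libraries is a spread between pools. The other libraries, 2 each, held cells labelled L-DKO iNKT and L-DKO DP, from mice with floxed Id2 and Id3 deleted by a Cre under the Lck promoter, Id3KO γδ cells, from mice lacking Id3, and WT DP cells (CD4+ CD8+ thymocytes). They lent their spread to the test, because the 1 WT iNKT library has none of its own, and WT DP gave a reference level.

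iNKT cells are αβ T cells with a nearly invariant α chain, which joins the segment Trav11 to a single Jα segment and recognises lipids held by CD1d. They are selected from DP thymocytes by other DP thymocytes, and the transcription factor PLZF, encoded by Zbtb16, gives them their rapid effector function. γδ T cells branch off earlier, at the double-negative stage, rearrange the γ and δ chains, and include subsets programmed for IL-17 or for interferon-γ and IL-4. E proteins such as E2A (Tcf3) and HEB (Tcf12) drive receptor rearrangement in thymocytes, and Id2 and Id3 hold them off DNA.

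Values are FPKM, fragments per kilobase of transcript scaled by the mapped fragments of the library, and the sequencing depth behind them is unknown. The FPKM of all genes summed to 1020310 in WT iNKT, against 689988 and 933593 in the WT γδ libraries a and b, which are named by their place in the table. Short RNAs, receptor segments and predicted genes held 61.5% of that sum in WT iNKT, against 53.0% and 62.3% in WT γδ. The WT γδ libraries also differed in sex-linked genes. Ddx3y, on the Y chromosome, had 0.0392 FPKM in WT iNKT, against 0.0365 and 32.6 FPKM in WT γδ a and b. Y-linked transcripts were thus abundant in WT γδ b alone among these 3 libraries, and their part in the results was not tested. In such bulk sorts, fewer cells of a type and less RNA per cell cannot be told apart.

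The receptor genes were examined first, because they test the cell type labels. For the V segments that separated the lineages most, the last 150 coding bases are shown 5′ to 3′, with the codon of the last in-frame cysteine in capitals, beyond which the joint with J or D sequence forms. They come from the GENCODE M1 transcripts, build NCBIM37, where both segments lie on chromosome 14.
Trav11d: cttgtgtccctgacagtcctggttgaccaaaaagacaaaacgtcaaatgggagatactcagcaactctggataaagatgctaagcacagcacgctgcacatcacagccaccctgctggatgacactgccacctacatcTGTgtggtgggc
Trdv5: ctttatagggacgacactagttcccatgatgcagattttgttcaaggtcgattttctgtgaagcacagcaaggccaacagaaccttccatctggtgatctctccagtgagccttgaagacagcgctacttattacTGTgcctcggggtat

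WT iNKT cells were set apart by the α chain that defines them. Trav11 (chromosome 14, 53519303 to 53519859) had 547 FPKM in WT iNKT, against 0.860 and 4.17 FPKM in WT γδ a and b, or 7.46 ± 0.52 as a log2 fold change with its SE (limma adjusted p = 0.00304). Its near-identical copy Trav11d (chromosome 14, 52824357 to 52824913), whose end is printed above, had 549 FPKM in WT iNKT, against 0.154 and 3.27 FPKM in WT γδ. Reads may be shared between the copies, so their separate levels are uncertain. The constant gene Trac had 784 FPKM in WT iNKT, against 51.0 and 73.8 FPKM in WT γδ, or 3.65 ± 0.28 as a log2 fold change (limma adjusted p = 0.00304). The WT iNKT library lay above both WT γδ libraries for each of these genes. Of 61 α variable segments measured, 6 were higher and 1 lower in WT iNKT past the test, against a background of 1.22% higher and 1.56% lower among all genes. The other rises were small in level, such as Trav6d-6 with 10.6 FPKM in WT iNKT, against 0.229 and 1.35 FPKM in WT γδ. The fall was in Trav13d-4, with 4.25 FPKM in WT iNKT, against 28.6 and 33.8 FPKM in WT γδ. The 5 α genes with values here kept their calls on leaving out any 1 of the other libraries.

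The δ segments ran the opposite way. Trdv5 (chromosome 14, 54148662 to 54149201), shown above, had 0.271 FPKM in WT iNKT, against 238 and 341 FPKM in WT γδ, or −7.81 ± 0.59 as a log2 fold change (limma adjusted p = 0.00304). Trdv2-2 had 3.15 FPKM in WT iNKT, against 115 and 206 FPKM in WT γδ. Of 16 segments that can join the δ chain, 8 were lower past the test and 0 higher, and the log2 fold change was below 0 for all 16, with a median of −3.41 against 0.026 over all genes. They included Trdv2-1, Trdv1, Trav21-dv12 and members of the Trav15-dv6 family, which serve in both α and δ chains. Trav15d-1-dv6d-1 had 3.02 FPKM in WT iNKT, against 56.0 and 87.1 FPKM in WT γδ (log2 fold change −4.14 ± 0.38, limma adjusted p = 0.00316). Members of this family cannot all be told apart by their reads, since the 348 coding bases of Trav15n-2 and Trav15d-2-dv6d-2 differ at 0 positions. Their shared end is given once to show this:
Trav15n-2: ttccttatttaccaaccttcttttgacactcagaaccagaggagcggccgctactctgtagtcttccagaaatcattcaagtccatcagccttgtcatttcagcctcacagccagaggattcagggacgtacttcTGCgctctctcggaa
Of these 8 calls, 5 held on leaving out any 1 library. Without WT γδ library a the calls of Trav15n-1, Trdv2-1 and Trdv1 were lost (limma adjusted p 0.0545 to 0.115), and that of Trdv1 was lost also without WT γδ library b (0.0762) or without a DP library (up to 0.0708).

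γ chain transcripts did not separate the lineages in the same way. Tcrg-C2 (chromosome 13, 19305060 to 19307551) had 217 FPKM in WT iNKT, against 312 and 486 FPKM in WT γδ. Tcrg-C1 had 150 FPKM in WT iNKT, against 247 and 390 FPKM in WT γδ, and Tcrg-V1 had 72.1 FPKM in WT iNKT, against 168 and 226 FPKM. WT iNKT lay below both WT γδ libraries for these genes, but the fold changes were modest and 0 of 6 γ genes passed the test. The log2 fold change of Tcrg-C2 was −0.84 ± 0.75, with a 95% interval of −2.57 to 0.88 (limma adjusted p = 0.594). In WT DP cells the same gene had 1.67 FPKM and was listed at 0, while libraries labelled L-DKO iNKT had 0.363 and 2.84 FPKM. γ transcripts were thus abundant in the WT iNKT library while the δ segments were near 0 there. Which cells carried them was not tested. The β constant genes were alike in both lineages, with 382 FPKM of Trbc1 in WT iNKT, against 355 and 530 FPKM in WT γδ. Trbv13-2, a β segment favoured by iNKT cells, had 520 FPKM in WT iNKT, against 72.4 and 121 FPKM in WT γδ, and Trbv29, a further such segment, had 271 FPKM in WT iNKT, against 14.1 and 27.0 FPKM. Neither passed the test (limma adjusted p = 0.50 and 0.341), and both had a wide spread between libraries, with Trbv29 at 1313 and 25.3 FPKM in libraries labelled L-DKO iNKT.

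**Figure D1:**
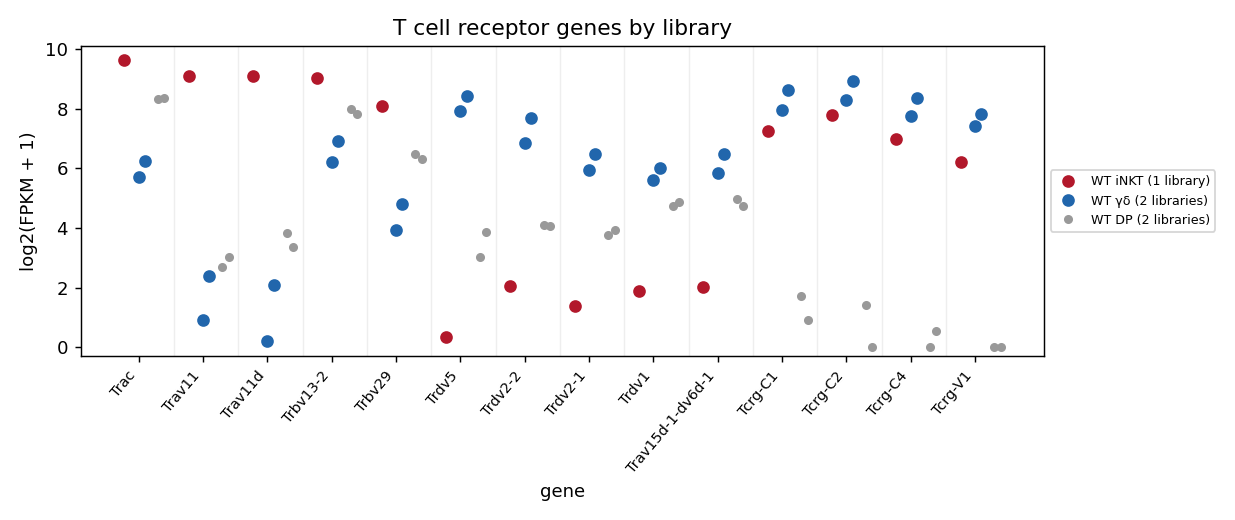
Level of 14 T cell receptor genes, as log2(FPKM + 1), in WT iNKT (red, 1 library), WT γδ (blue, 2 libraries) and WT DP (grey, 2 libraries), with 1 point per library. Trac and the Trav11 copies are higher in WT iNKT, the δ segments are higher in WT γδ, and the γ genes are high in WT iNKT and WT γδ but near 0 in WT DP.

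Across the 11815 genes, 328 differed between the lineages at a limma adjusted p under 0.05, which is 2.78% of those tested. Of these, 144 (1.22% of all genes) were higher in WT iNKT and 184 (1.56%) lower, and at an unadjusted p under 0.05 the count was 2148. Those 2 shares are the background for each count of calls in a list below. In all 328 the WT iNKT library lay outside the range of both WT γδ libraries, as it did for 39.3% of all genes above them and 36.0% below them. The smallest change called was 0.94 on the log2 scale. The split rested on the scaling, since with each library brought to 1 FPKM total 54 genes were higher and 119 lower, and with 1 total over genes other than short RNAs, receptor segments and predicted genes 107 were higher and 222 lower. These scalings moved the median log2 fold change of all genes to −0.28 and −0.10. The number rested on WT γδ library a in particular, since 70 genes passed without it and 433 without WT γδ library b. Leaving out 1 of the DP libraries, which enter through the spread alone, gave 147 or 187.

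**Figure D2:**
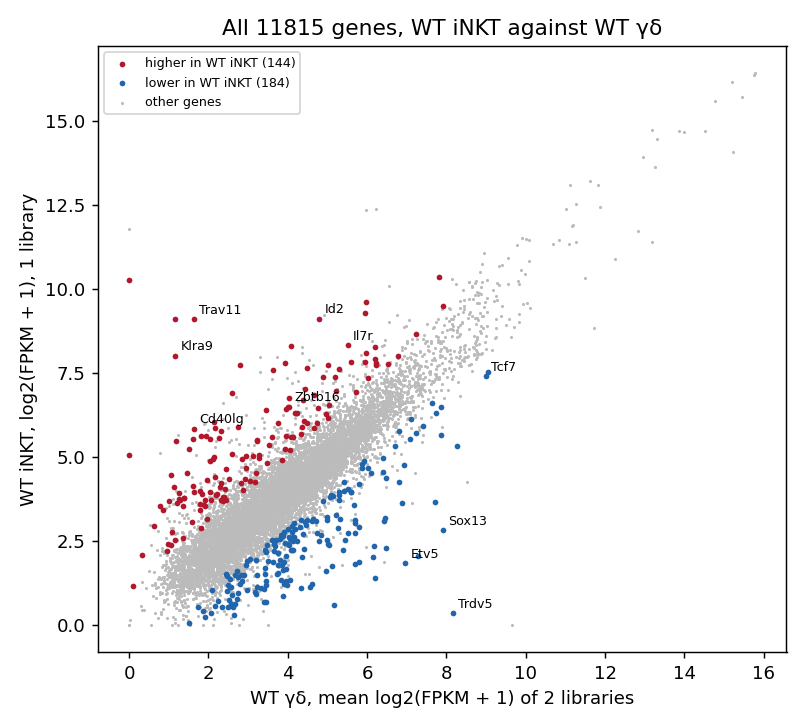
Mean log2(FPKM + 1) of the 2 WT γδ libraries on the x axis and log2(FPKM + 1) of the WT iNKT library on the y axis, with 1 point per gene. The 144 genes called higher in WT iNKT are red and the 184 called lower are blue, and Trav11, Klra9 and Id2 stand far above the main cloud of genes while Trdv5, Etv5 and Sox13 stand far below it.

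Leaving out receptor segments, small RNAs and predicted genes, the 2 largest rises past the test in WT iNKT cells were in receptors of natural killer (NK) cells. Klra9, an inhibitory receptor of the Ly49 family, had 257 FPKM in WT iNKT, against 0.960 and 1.56 FPKM in WT γδ, or 6.85 ± 1.27 as a log2 fold change (limma adjusted p = 0.0349). Its reads may be split with other Ly49 genes. Klrd1, which encodes CD94, the partner of the NKG2 receptors, had 213 FPKM in WT iNKT, against 3.70 and 9.35 FPKM in WT γδ (log2 fold change 4.94 ± 0.77, limma adjusted p = 0.0185). The Ly6C genes, surface markers of memory and effector cells that are close copies of each other, also rose. Ly6c2 had 315 FPKM in WT iNKT, against 9.88 and 25.3 FPKM in WT γδ, and Ly6c1 had 191 FPKM in WT iNKT, against 8.58 and 14.9 FPKM.

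Of 15 type 1 and NK effector genes measured, 6 were higher and 0 lower, against 1.22% higher and 1.56% lower among all genes. Their median log2 fold change was 2.24. Cxcr6, a chemokine receptor that guides NKT cells, had 199 FPKM in WT iNKT, against 15 and 30.7 FPKM in WT γδ (log2 fold change 3.15 ± 0.39, limma adjusted p = 0.00878). Ctsw, a cathepsin of cytotoxic cells, had 227 FPKM in WT iNKT, against 60.2 and 37.3 FPKM in WT γδ (log2 fold change 2.23 ± 0.30). Il12rb2, the signalling chain of the IL-12 receptor, had 43.4 FPKM in WT iNKT, against 7.10 and 9.88 FPKM in WT γδ. Not every effector gene followed. Gzma, which encodes granzyme A, had 57.6 FPKM in WT iNKT, against 184 and 301 FPKM in WT γδ, a log2 fold change of −2.01 ± 0.62 that did not pass (limma adjusted p = 0.140). Klra1 leaned the same way as the list, with 62.8 FPKM in WT iNKT, against 2.94 and 2.65 FPKM in WT γδ, but did not pass (limma adjusted p = 0.131). Its mutant libraries were uneven, with 13.1 and 104 FPKM in L-DKO iNKT and 37.9 and 5.93 FPKM in Id3KO γδ. With WT groups alone in the fit it passed. Cxcr6 and Ctsw kept their calls on leaving out any 1 library, though Ctsw lost its call with libraries at 1 FPKM total (limma adjusted p = 0.0703), whereas Klra9, Klrd1, Ly6c1, Ly6c2 and Il12rb2 lost theirs without WT γδ library a (limma adjusted p 0.101 to 0.156). Klra9 was lost also without WT γδ library b (0.0704), and Klra9, Ly6c2 and Il12rb2 without a DP library (up to 0.0726).

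Id2 stood among the largest differences and Id3 leaned the other way. Id2 (chromosome 12, 25093799 to 25096092) had 553 FPKM in WT iNKT, against 20.4 and 34.6 FPKM in WT γδ, or 4.33 ± 0.52 as a log2 fold change (limma adjusted p = 0.00857). WT DP cells had 2.25 and 2.64 FPKM. Both lineages thus lay above DP cells in Id2, with WT iNKT far above WT γδ. Id3 had 42.4 FPKM in WT iNKT, against 157 and 96.7 FPKM in WT γδ, below both, but the log2 fold change of −1.52 ± 0.43 did not pass (limma adjusted p = 0.118). The E protein genes Tcf3 and Tcf12 were also below both WT γδ libraries without passing, with 31.5 FPKM of Tcf3 in WT iNKT, against 91.2 and 58.1 FPKM in WT γδ (limma adjusted p = 0.0929). Zbtb16 (chromosome 9, 48651797 to 48836225) had 88.7 FPKM in WT iNKT, against 24.0 and 9.69 FPKM in WT γδ, and 0.0684 and 0.0382 FPKM in WT DP. Its log2 fold change between the lineages was 2.46 ± 0.45 (limma adjusted p = 0.0330). The call of Id2 was lost without WT γδ library a (limma adjusted p = 0.0574), and that of Zbtb16 without a DP library (up to 0.0748). Zbtb16 did not pass either with libraries at 1 FPKM total (limma adjusted p = 0.102), with WT groups alone in the fit (0.0702) or with a pseudocount of 0.1 (0.0599).

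Genes of the γδ lineage formed the largest falls. Etv5 (chromosome 16, 22381313 to 22439570), an ETS factor of IL-17-producing γδ cells, had 2.54 FPKM in WT iNKT, against 125 and 123 FPKM in WT γδ, or −5.14 ± 0.63 as a log2 fold change (limma adjusted p = 0.00874). Sox13, a high mobility group (HMG) factor that marks the γδ lineage, had 6.05 FPKM in WT iNKT, against 284 and 202 FPKM in WT γδ (log2 fold change −5.09 ± 0.74, limma adjusted p = 0.0153). The related Sox5 had 1.18 FPKM in WT iNKT, against 27.7 and 18.7 FPKM in WT γδ. Sox4, a further HMG factor that is needed by IL-17-producing γδ cells, had 4.05 FPKM in WT iNKT, against 89.8 and 56.1 FPKM in WT γδ (log2 fold change −3.83 ± 0.33, limma adjusted p = 0.00316). WT DP cells had 58.0 and 53.7 FPKM of Sox4, within reach of WT γδ, but 0.562 and 0.0614 FPKM of Sox13. Of 6 γδ lineage genes measured, 3 were lower past the test and 0 higher, against 1.56% lower and 1.22% higher among all genes. All 6 lay below both WT γδ libraries, as did 36.0% of all genes. Sox4 kept its call on leaving out any 1 library, while Etv5, Sox13 and Sox5 lost theirs without WT γδ library a (limma adjusted p 0.0621 to 0.154), and Sox5 also without WT γδ library b (0.0556) or a DP library (up to 0.0728). None of the 8 type 17 genes measured passed the test.

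The remaining large falls were of varied function. Tmem121 had 0.510 FPKM in WT iNKT, against 41.8 and 29.5 FPKM in WT γδ, and Fam169b had 3.88 FPKM in WT iNKT, against 94.2 and 83.2 FPKM. Apoe, a lipid carrier protein, had 11.4 FPKM in WT iNKT, against 126 and 109 FPKM in WT γδ. Mpp4, Marcksl1, Mex3a and Ppm1l fell by 3.04 to 3.40 on the log2 scale. Of these 7 genes, 5 kept their calls on leaving out any 1 library, and Mex3a and Apoe lost theirs without WT γδ library a (limma adjusted p 0.0693 to 0.0754).

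**Figure D3:**
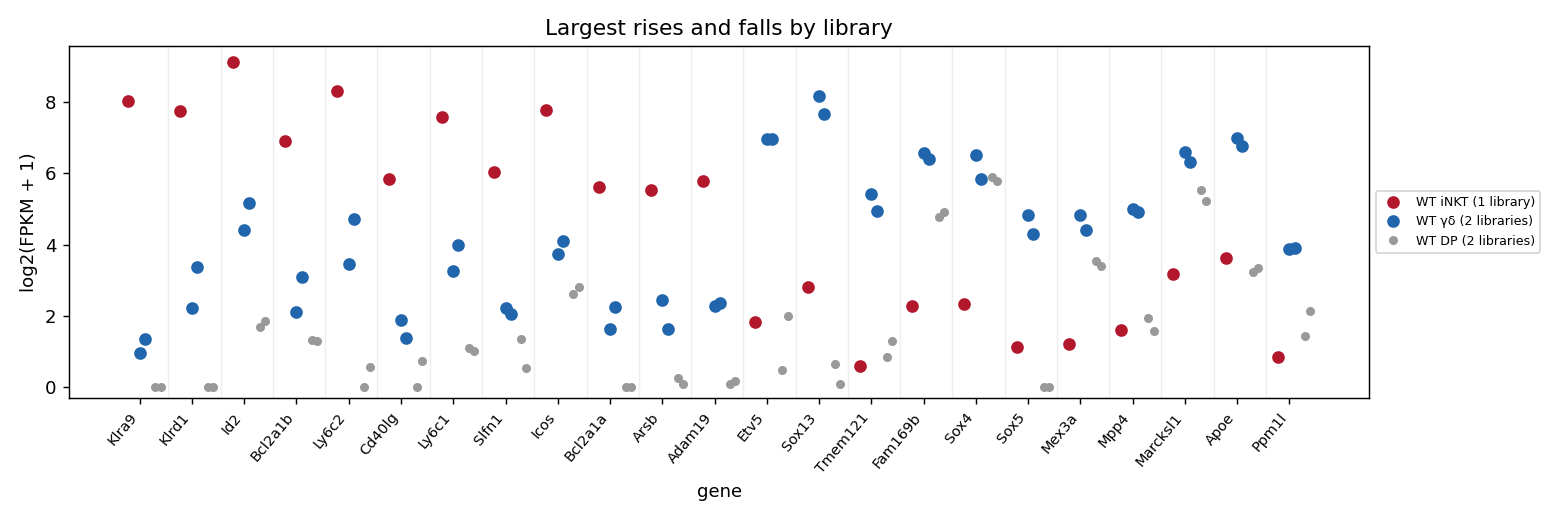
Level, as log2(FPKM + 1), of the 12 largest rises (left) and 11 of the largest falls (right) past the test, in WT iNKT (red, 1 library), WT γδ (blue, 2 libraries) and WT DP (grey, 2 libraries), with 1 point per library. The WT iNKT point lies beyond both WT γδ points for each gene, which the naming rule required.

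Of 28 lineage transcription factors measured, 5 fell in WT iNKT, 1 rose and 22 did not pass, against 1.56% lower and 1.22% higher among all genes. Tcf7, which encodes TCF-1, had 168 FPKM in WT iNKT, against 479 and 539 FPKM in WT γδ, or −1.59 ± 0.19 as a log2 fold change (limma adjusted p = 0.00796). Its relative Lef1 had 87.9 FPKM in WT iNKT, against 248 and 219 FPKM in WT γδ (log2 fold change −1.40 ± 0.20). Myb, which DP cells need to live long enough for late Vα to Jα joining, had 25.8 FPKM in WT iNKT, against 116 and 127 FPKM in WT γδ (log2 fold change −2.19 ± 0.23, limma adjusted p = 0.00459). Bcl11b, a factor of T cell commitment, had 50.7 FPKM in WT iNKT, against 168 and 133 FPKM in WT γδ. Sox4 was the fifth fall and Zbtb16 the rise. Other factors had values that did not pass. Gata3, the type 2 factor, had 68.0 FPKM in WT iNKT, against 151 and 127 FPKM in WT γδ (limma adjusted p = 0.206). Runx1 had 73.9 FPKM in WT iNKT, against 86.3 and 114 FPKM in WT γδ. Egr2, which lies upstream of PLZF in the NKT lineage, had 8.32 FPKM in WT iNKT, between the WT γδ values of 10.6 and 6.19 FPKM, and its log2 fold change of 0.03 ± 0.33 turned negative under other scalings and without WT γδ library b (−0.31). Zbtb7b, which encodes the CD4 lineage factor ThPOK, had 38.3 FPKM in WT iNKT, against 3.96 and 3.12 FPKM in WT γδ (limma adjusted p = 0.132). Myb and Tcf7 kept their calls on leaving out any 1 library, and Lef1 and Bcl11b lost theirs without WT γδ library a (limma adjusted p 0.0629 to 0.0634).

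Among 21 cytokine receptor genes, 2 rose and 1 fell, against 1.22% higher and 1.56% lower among all genes. Il7r, the α chain of the receptor for the survival cytokine IL-7, had 319 FPKM in WT iNKT, against 40.2 and 49.6 FPKM in WT γδ, or 2.81 ± 0.34 as a log2 fold change (limma adjusted p = 0.00878). The other rise was Il12rb2. Il6st, which encodes gp130, the chain shared by IL-6 family receptors, had 7.72 FPKM in WT iNKT, against 53.4 and 48.0 FPKM in WT γδ (log2 fold change −2.57 ± 0.41, limma adjusted p = 0.0198). Il2rb, the chain that IL-2 and IL-15 share, had 312 FPKM in WT iNKT, against 105 and 63.4 FPKM in WT γδ, above both, but did not pass (log2 fold change 1.92 ± 0.63, limma adjusted p = 0.162). Ifngr1 had 112 FPKM in WT iNKT, against 125 and 188 FPKM in WT γδ (limma adjusted p = 0.510). The 3 calls were lost without WT γδ library a (limma adjusted p 0.0614 to 0.104), and those of Il6st and Il12rb2 without a DP library (up to 0.0501).

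Costimulatory genes were among the largest rises. Icos, a costimulator of effector and follicular helper cells, had 220 FPKM in WT iNKT, against 12.4 and 16.2 FPKM in WT γδ (log2 fold change 3.86 ± 0.50, limma adjusted p = 0.0107). Cd40lg, the ligand by which T cells license antigen-presenting cells, had 56.1 FPKM in WT iNKT, against 2.71 and 1.61 FPKM in WT γδ, a mean of 2.16 ± 0.780 FPKM (SD, n = 2), or 4.20 ± 0.33 as a log2 fold change (limma adjusted p = 0.00304). Cd28 had 121 FPKM in WT iNKT, against 44.2 and 60.0 FPKM in WT γδ. The opposite lean was seen in Pdcd1, which encodes the inhibitory receptor PD-1, with 33.4 FPKM in WT iNKT, against 127 and 81.9 FPKM in WT γδ, and in Tox2, with 2.45 FPKM in WT iNKT, against 45.3 and 36.3 FPKM, neither of which passed (limma adjusted p = 0.107 and 0.0963). In the group of SLAM receptors and CD1d, through which DP cells select NKT cells, 1 of 9 genes rose and 1 fell. Ly9, a SLAM receptor, had 70.2 FPKM in WT iNKT, against 34.0 and 28.8 FPKM in WT γδ, and Cd1d1 had 7.52 FPKM in WT iNKT, against 26.0 and 21.2 FPKM. Slamf6 had 19.9 FPKM in WT iNKT, within the WT γδ values of 16.3 and 21.4 FPKM, and the sign of its log2 fold change of 0.08 ± 0.26 turned under other scalings and without WT γδ library a (−0.10). Cd40lg kept its call on leaving out any 1 library, and Icos, Cd28, Ly9 and Cd1d1 lost theirs without WT γδ library a (limma adjusted p 0.0713 to 0.145). Ly9 was lost also without WT γδ library b (0.0701), Ly9 and Cd28 without a DP library (up to 0.111), and Cd28 without a mutant iNKT or γδ library (0.0554).

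Receptor signalling genes changed in both directions. Rasgrp1, the exchange factor that links the T cell receptor to Ras, had 49.4 FPKM in WT iNKT, against 221 and 242 FPKM in WT γδ, or −2.20 ± 0.19 as a log2 fold change (limma adjusted p = 0.00316). Cd247, the CD3ζ chain, had 78.7 FPKM in WT iNKT, against 213 and 215 FPKM in WT γδ (log2 fold change −1.43 ± 0.26). Ptpn6, which encodes the phosphatase SHP-1, a brake on receptor signalling, had 216 FPKM in WT iNKT, against 95.9 and 85.6 FPKM in WT γδ (log2 fold change 1.24 ± 0.21). These were 3 of 26 genes of the receptor complex and its signalling. Cd3e did not pass, with 388 FPKM in WT iNKT, against 279 and 283 FPKM in WT γδ (limma adjusted p = 0.269). Of 23 immediate early genes, 2 rose and 1 fell. Nr4a1, which encodes Nur77, a reporter of receptor signalling, had 6.54 FPKM in WT iNKT, against 67.2 and 43.6 FPKM in WT γδ (log2 fold change −2.87 ± 0.38, limma adjusted p = 0.0107). Rgs2, a regulator of G protein signalling, had 102 FPKM in WT iNKT, against 18.6 and 21.4 FPKM in WT γδ, and Dusp1, a phosphatase that turns off MAP kinases, had 87.6 FPKM in WT iNKT, against 16.2 and 13.9 FPKM. Rasgrp1 and Rgs2 kept their calls on leaving out any 1 library. Nr4a1, Cd247, Ptpn6 and Dusp1 lost theirs without WT γδ library a (limma adjusted p 0.0545 to 0.114), and Cd247 and Ptpn6 also without WT γδ library b (0.0530 to 0.0589) or a DP library (up to 0.0804).

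Among 20 genes of migration and thymic exit, 2 rose, Cxcr6 and Gpr183, and 2 fell, Ccr9 among them. Ccr9, the receptor for the thymic and gut chemokine CCL25, had 38.9 FPKM in WT iNKT, against 271 and 350 FPKM in WT γδ (log2 fold change −2.95 ± 0.38, limma adjusted p = 0.0107). Gpr183, an oxysterol receptor, had 30.5 FPKM in WT iNKT, against 7.14 and 10.7 FPKM in WT γδ. Survival and death genes held 2 rises in 15, both in the A1 genes of the BCL2 family, close copies whose reads may be split. Bcl2a1b had 118 FPKM in WT iNKT, against 3.28 and 7.44 FPKM in WT γδ (log2 fold change 4.31 ± 0.48, limma adjusted p = 0.00652), and Bcl2a1a had 48.1 FPKM in WT iNKT, against 2.09 and 3.79 FPKM. S100a6, a calcium-binding protein of activated cells, had 213 FPKM in WT iNKT, against 25.6 and 37.8 FPKM in WT γδ, and with S100a11 made up the 2 rises among 11 S100 and annexin genes. Gimap4, 1 of 8 GIMAP GTPases of lymphocyte survival, had 271 FPKM in WT iNKT, against 62.8 and 60.1 FPKM in WT γδ, and was the only one of them to pass. The last 3 of the largest rises were Slfn1, a Schlafen gene first linked to T cell quiescence, Arsb, a lysosomal sulfatase, and Adam19, a metalloprotease, which rose by 3.46 to 3.88 on the log2 scale. Gimap4, Bcl2a1b and Cxcr6 kept their calls on leaving out any 1 library. Ccr9, S100a11, Gpr183, Bcl2a1a, S100a6, Slfn1, Arsb and Adam19 lost theirs without WT γδ library a (limma adjusted p 0.0545 to 0.165). Some were lost under other omissions too, Arsb and Adam19 without WT γδ library b (0.0768 to 0.0879), both of these with S100a11 and Gpr183 without a DP library (up to 0.10), and S100a11 and Gpr183 without a mutant iNKT or γδ library (0.0512 to 0.0541).

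Of 40 proliferation genes, 38 had a log2 fold change below 0, the median was −0.92, against 0.03 over all genes, and 1 passed, 2.5% of the list against 2.78% of all genes. It was Kif23, with 5.05 FPKM in WT iNKT, against 18.4 and 15.4 FPKM in WT γδ (limma adjusted p = 0.0198). Top2a had 70.3 FPKM in WT iNKT, against 174 and 154 FPKM in WT γδ, without passing (limma adjusted p = 0.190). Of 22 DP stage and recombination genes, 3 fell and the median was −0.81. The falls were in Ccr9, Cd1d1 and Mns1, and WT DP cells had 245 FPKM of Ccr9 in each library, near WT γδ and above WT iNKT. The summed level of this list was 933 FPKM in WT iNKT, against 1419 and 1876 FPKM in WT γδ, and 7107 and 7695 FPKM in WT DP. Rag1, a recombinase gene, had 47.8 FPKM in WT iNKT, against 84.9 and 112 FPKM in WT γδ, with 1114 and 1177 FPKM in WT DP. Both sorts thus held transcripts that were abundant in WT DP, at higher levels in WT γδ than in WT iNKT. Which cells carried them, and their part in the falls, was not tested.

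In the other direction, 20 of 21 interferon response genes were above 0 with a median of 0.95, and 18 of 20 genes of MHC class I presentation with a median of 0.66, but 0 passed in either list. With libraries at 1 FPKM total these medians were 0.61 and 0.32. B2m, the light chain of MHC class I, had 1717 FPKM in WT iNKT, against 327 and 691 FPKM in WT γδ (log2 fold change 1.85 ± 0.46, limma adjusted p = 0.0857). Ifit1, an interferon-induced antiviral gene, had 17.4 FPKM in WT iNKT, against 4.44 and 4.31 FPKM in WT γδ (limma adjusted p = 0.190). These lists hold genes that move together, and a common shift of a list was not tested. Of 9 early T and Notch pathway genes, 1 fell, Notch3. Glycolysis and heat shock chaperone genes gave 0 calls among 17 and 12. The calls of Kif23, Ccr9, Cd1d1, Mns1 and Notch3 were lost without WT γδ library a (limma adjusted p 0.0545 to 0.156), that of Mns1 also without WT γδ library b (0.0936) or a mutant iNKT or γδ library (0.0603), and those of Mns1, Kif23 and Notch3 without a DP library (up to 0.102).

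**Figure D4:**
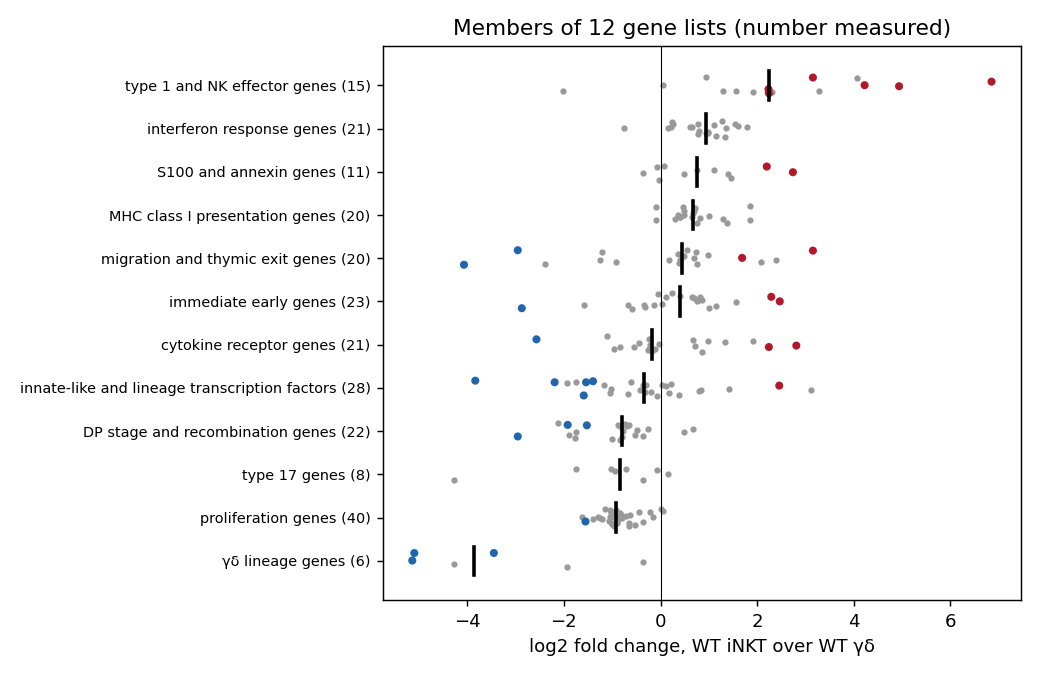
Log2 fold change of WT iNKT over WT γδ for the members of 12 gene lists, with 1 point per gene, red or blue where the gene was called higher or lower and grey where it was not, and a bar at each list's median. The medians run from 2.24 for type 1 and NK effector genes to −3.86 for γδ lineage genes, and the interferon and proliferation lists lean away from 0 with 0 and 1 members called.

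The study had compiled, from published arrays of other mice, a signature of genes raised or lowered both in iNKT cells, relative to αβ lineage thymocytes, and in a γδ NKT subset, relative to all thymic γδ cells. WT γδ cells here were not sorted by subset. Between the WT lineages its raised and lowered genes moved apart. Of 100 measured genes of the raised set, 16 were higher in WT iNKT and 0 lower, with a median log2 fold change of 0.98. Of 41 of the lowered set, 16 were lower and 0 higher, with a median of −1.75. Among all genes 1.22% were higher and 1.56% lower. In the raised set, Chn2, a Rac GTPase regulator, had 129 FPKM in WT iNKT, against 22.7 and 18.7 FPKM in WT γδ (log2 fold change 2.59 ± 0.32, limma adjusted p = 0.00874). Lpcat4, a phospholipid enzyme, had 107 FPKM in WT iNKT, against 21.9 and 10.6 FPKM in WT γδ. Zbtb16, Il7r and Cd40lg belong to this set, and Etv5, Fam169b, Tcf7 and Rasgrp1 to the lowered set. In the lowered set, Nck2, an adaptor of receptor signalling, had 18.1 FPKM in WT iNKT, against 104 and 117 FPKM in WT γδ (log2 fold change −2.54 ± 0.23, limma adjusted p = 0.00316), and Slc16a5, a carboxylate transporter, had 6.42 FPKM in WT iNKT, against 34.8 and 40.2 FPKM. Chn2 and Nck2 kept their calls on leaving out any 1 library, Lpcat4 lost its call without WT γδ library a (limma adjusted p = 0.0879), b (0.0929) or a DP library (0.10), and Slc16a5 without WT γδ library a (0.0545).

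Markers of other cells that a thymus sort can hold did not all lean 1 way. All 6 myeloid and dendritic markers measured lay below both WT γδ libraries, as did 36.0% of all genes. Their summed level was 107 FPKM in WT iNKT, against 212 and 239 FPKM in WT γδ. Lyz2, lysozyme of myeloid cells, had 7.09 FPKM in WT iNKT, against 36.9 and 70.1 FPKM in WT γδ (log2 fold change −2.68 ± 0.49, limma adjusted p = 0.0340), and Cd79b, a chain of the B cell receptor, had 1.09 FPKM in WT iNKT, against 9.21 and 9.81 FPKM. Pecam1, an adhesion protein of endothelium and some leukocytes, had 17.2 FPKM in WT iNKT, against 56.9 and 51.8 FPKM in WT γδ. Of 6 erythroid and platelet markers, 5 had a log2 fold change above 0 and 0 passed, with a summed level of 117 FPKM in WT iNKT, against 79.4 and 74.8 FPKM in WT γδ. Hbb-bs, a β-globin gene of red cells, had 56.3 FPKM in WT iNKT, against 29.2 and 33.7 FPKM in WT γδ. The part of these cells in the results was not tested. Of 9 markers of NK and innate lymphoid cells, 0 were in the table analysed. Cd79b kept its call on leaving out any 1 library, Lyz2 and Pecam1 lost theirs without WT γδ library a (limma adjusted p 0.0650 to 0.0693), and Lyz2 also without WT γδ library b (0.0691) or a DP library (up to 0.0754).

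The difference between the lineages was then set against the difference between the libraries labelled L-DKO iNKT and Id3KO γδ, by a test of the difference of differences. The targeted genes were examined first. Id2 was listed at 0 and had 0.199 FPKM in libraries labelled L-DKO iNKT, against 157 and 60.0 FPKM in Id3KO γδ. Id3 had 30.5 and 22.8 FPKM in libraries labelled L-DKO iNKT, against 3.95 and 3.07 FPKM in Id3KO γδ, so that reads of Id3 remained in the library pair whose label gives Id3 as deleted. The lineage difference departed for 780 genes, 6.60% of those tested, 396 (3.35%) with a positive and 384 (3.25%) with a negative value (1249 in all, 148 positive and 1101 negative, with libraries at 1 FPKM total). Without WT γδ library a the count was 372, and without an L-DKO DP library 392. These contrasts share no libraries, but the mutants differ from each other in the gene deleted, and far more mutant than WT cells were sorted, so genotype and cell input cannot be told apart. Y-linked transcripts differed as well. Ddx3y had 32.0 and 30.2 FPKM in libraries labelled L-DKO iNKT, against 0.0392 FPKM in WT iNKT. It had 8.16 and 254 FPKM in Id3KO γδ, against 0.0365 and 32.6 FPKM in WT γδ. Their part in the difference of differences was not tested. Under the same limits on segments, small RNAs and predicted and mitochondrial genes, the largest positive difference was in Id2, at 10.81 (limma adjusted p = 0.00106), with a log2 fold change of 4.33 between the WT lineages and −6.48 between the mutant ones. Id2 is a gene targeted in L-DKO cells and not in Id3KO cells. Klra9, Pydc4, Klrd1 and Adam19 followed under those limits, at 7.27 to 7.62, and the Jα segment Traj49, outside them, had 10.69. Traj49 was listed at 0 in both libraries labelled L-DKO iNKT, and exact 0 values may be failed estimates. Its log2 fold change of −1.15 between the WT lineages did not pass (limma adjusted p = 0.481). The call of Klra9 for this difference was lost without WT γδ library a (limma adjusted p = 0.105) or b (0.0681), the L-DKO iNKT library a (0.0567) or a DP library (up to 0.0633). Pydc4, an interferon-induced gene of the PYHIN family with near copies, had 187 FPKM in WT iNKT, against 25.1 and 36.1 FPKM in WT γδ, and 0.485 and 3.34 FPKM in libraries labelled L-DKO iNKT, against 94.0 and 63.4 FPKM in Id3KO γδ.

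The largest negative differences under those limits were in Etv5, Igfbp4, Tmem121, Slc16a5 and Kcnf1. Etv5, which fell by 5.14 on the log2 scale between the WT lineages, had 34.5 and 27.4 FPKM in libraries labelled L-DKO iNKT, against 8.51 and 3.21 FPKM in Id3KO γδ, a difference of differences of −7.46 (limma adjusted p = 0.00347). Igfbp4, which binds insulin-like growth factors, had 21.9 FPKM in WT iNKT, against 192 and 112 FPKM in WT γδ, and 72.0 and 146 FPKM in libraries labelled L-DKO iNKT, against 18.0 and 2.66 FPKM in Id3KO γδ, and its difference of differences of −6.33 did not pass without WT γδ library a (limma adjusted p = 0.0681). Kcnf1, a potassium channel subunit, had 0.112 FPKM in WT iNKT, against 0.0338 and 0.00926 FPKM in WT γδ, and 66.1 and 102 FPKM in libraries labelled L-DKO iNKT, against 1.60 and 0.788 FPKM in Id3KO γδ. Tcrg-C2, which did not differ past the test between the WT lineages, had a log2 fold change of −6.99 between the mutant ones and a difference of differences of 6.15 (limma adjusted p = 0.0128). The Trav11 segment had 192 and 261 FPKM in libraries labelled L-DKO iNKT, against 1.61 and 1.23 FPKM in Id3KO γδ, and its difference of differences of 0.92 did not pass (limma adjusted p = 0.455).

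**Figure D5:**
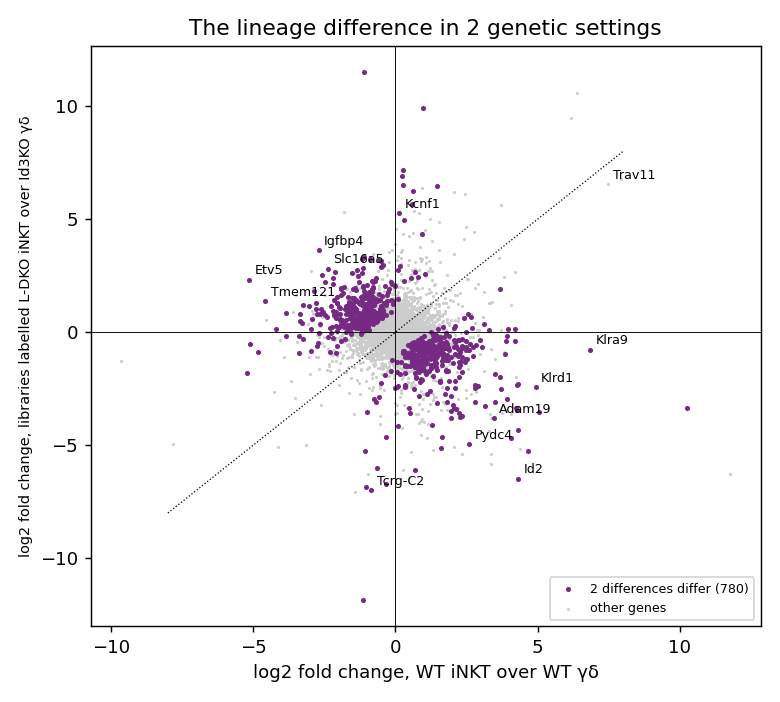
Log2 fold change of WT iNKT over WT γδ on the x axis and of the libraries labelled L-DKO iNKT over Id3KO γδ on the y axis, with 1 point per gene, purple for the 780 genes whose difference of differences passed, and a dotted line where both are equal. Id2 lies far to the lower right and Etv5 to the upper left, while Trav11 lies near the line.

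E proteins bind E-box motifs, so the promoters of genes that differed most were searched for CAGGTG and CAGCTG, on both strands, in the 250 bases before the start. Each motif was counted on its own, and a match is a description of the sequence, not of binding. Promoter sequences are from RefSeq, build GRCm38.p6, which held 87 of the 144 genes called higher, 134 of the 184 called lower and 7742 of all genes tested by symbol. Either motif was found in 24.1% of the promoters of genes called higher, 25.4% of those called lower, 23.3% of those tested and 27.4% of the whole table of 27025. The shares lay within a few percentage points of each other. Among the largest changes, the promoters of Klra9, Sox13, Sox5, Mpp4 and Marcksl1 held neither motif. The promoters of Id2 (chr12:25096093-25096342, minus strand), the largest rise among genes of the E and Id proteins, and of Etv5 (chr16:22439571-22439820) and Sox4 (chr13:28953700-28953949), both of the minus strand and both falls, each held 1 CAGCTG, shown in capitals.
Id2: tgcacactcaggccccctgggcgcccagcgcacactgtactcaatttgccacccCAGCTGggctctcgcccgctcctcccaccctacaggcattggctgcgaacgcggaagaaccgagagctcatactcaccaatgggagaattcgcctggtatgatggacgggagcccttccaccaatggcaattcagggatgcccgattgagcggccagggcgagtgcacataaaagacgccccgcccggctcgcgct
Etv5: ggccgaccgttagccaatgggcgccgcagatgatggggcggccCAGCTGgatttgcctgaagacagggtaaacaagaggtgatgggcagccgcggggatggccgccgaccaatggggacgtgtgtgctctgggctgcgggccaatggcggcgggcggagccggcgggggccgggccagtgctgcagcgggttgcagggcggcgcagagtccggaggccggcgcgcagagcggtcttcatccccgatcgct
Sox4: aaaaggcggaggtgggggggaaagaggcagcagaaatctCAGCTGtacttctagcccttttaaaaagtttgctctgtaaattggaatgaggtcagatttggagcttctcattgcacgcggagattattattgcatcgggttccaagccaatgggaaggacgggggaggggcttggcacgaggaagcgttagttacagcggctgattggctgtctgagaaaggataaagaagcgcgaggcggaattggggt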

How the data were processed

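Reads were trimmed with Trimmomatic 0.32, aligned with TopHat2 2.0.9 and quantified with Cufflinks 2.2.0, by the submitters' processing notes and the study's methods, and the notes give the builds mm10 and GRCm38. The annotation, and whether counting used strand, were not given in the sources used here. The deposited values are FPKM on a log2 scale, read as log2(FPKM + 1), with a highest value of 16.65. The authors filtered low-quality genes, and their columns of group means and of fold changes (ratios) of mutant to WT were not used. Of 2 labelled WT iNKT samples, 1 has a column, and columns of a group share 1 name. Exact 0 values may be failed estimates.

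Tests used limma 3.58.1 (R 4.3.3) on log2(FPKM + 1), fitting the means of 6 groups and, over 11 libraries, 1 spread per gene (5 residual degrees of freedom, 2.87 added by moderation). The single WT iNKT library is assumed to vary like the others. Tests took both directions, p-values were adjusted by Benjamini-Hochberg over all 11815 genes with a threshold of 0.05, and fold changes, on the log2(FPKM + 1) scale, understate those of low genes. Since each library is a pool of mice, p-values measure the spread between pools.

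Named were the 12 largest rises and 12 largest falls past the threshold with at least 10 FPKM in the higher group, no overlap and no predicted, small RNA, receptor or mitochondrial gene, genes the study names, up to 4 members per list, and for the difference of differences the 5 largest each way. Bcl11b, Cd28, Chn2, Ctsw, Gpr183, Nck2, Ptpn6, Cd3e, Rag1, Top2a, Trbc1, Trav15d-1-dv6d-1, Trav15n-1, Trav15n-2, Trav21-dv12 and Trdv1 fall outside these parts and were chosen after their values were seen. Members and lists were chosen with earlier results of these data known. Coordinates are from RefSeq GRCm38.p6, 1-based, in which 10377 genes were found under their symbol and 618 under an older one. Alternatives were pseudocounts of 0.1 and 5, a filter on low values, other scalings, a trend, fewer groups and each library left out. The script was tested on simulated data. Of the genes the naming rule takes, some are not reported here.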

Additional observations from a re-analysis of the deposited data

Results flagged for a closer look

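The difference between WT iNKT and WT γδ departed from that between the libraries labelled L-DKO iNKT and Id3KO γδ for 64 of 109 genes followed here, by a limma test of the difference of differences (limma adjusted p 0.00106 to 0.0496). The share over all 11815 genes was 6.60%. Values are in log2 units, WT difference minus mutant difference, and 50 of the 64 genes had opposite signs in WT and mutant cells. An opposite sign is not always a reversal. The mutant difference passed for some genes, such as Il6st (2.55, limma adjusted p = 0.00675) and Cxcr6 (−3.26, 0.00221). It was small and did not pass for others, such as Fam169b (0.17, 0.829) and Ly6c2 (−0.38, 0.787). Many of the genes were named for their WT difference, which is part of this test, so these counts do not stand for genes at large. Genotype, cell input and the subsets within a sort cannot be told apart in the mutant libraries. Y-linked transcripts also differed between WT and mutant libraries, and their part was not tested. Of the 64 genes, 20 lost this call on leaving out 1 or another library, 19 of them without WT γδ library a (limma adjusted p up to 0.120).

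Among receptor genes, positive values were 4.17 in Tcrg-C4, 5.78 in Tcrg-C1 and 6.15 in Tcrg-C2. Negative values were −3.92 in Trdv2-1, −3.72 in Trav21-dv12, −3.63 in Trav13d-4, −3.40 in Trdv2-2 and −2.11 in Trav15n-2. Of the δ segments called between the WT lineages, Trav15d-1-dv6d-1 and Trav15n-1 had positive values, 0.93 and 1.84, that did not pass. Trav15d-1-dv6d-1 had 574 and 619 FPKM in Id3KO γδ, against 56.0 and 87.1 FPKM in WT γδ. Trdv5 went the other way, with 50.4 and 17.1 FPKM in Id3KO γδ, against 238 and 341 FPKM in WT γδ. The γδ sorts thus differed in δ segments, and the part of this in the differences was not tested.

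Among Id proteins and transcription factors, positive values were 10.81 in Id2 and 3.77 in Zbtb16. Negative values were −4.13 in Id3, −7.46 in Etv5, −4.70 in Sox4, −4.58 in Sox13, −3.13 in Myb, −2.44 in Lef1, −2.44 in Tcf7, −2.23 in Bcl11b and −4.70 in Nr4a1. Id2 and Id3 are the genes targeted in the mutants, and Id3 still had 30.5 and 22.8 FPKM in libraries labelled L-DKO iNKT, against 3.95 and 3.07 FPKM in Id3KO γδ.

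Among effector, NK and surface genes, positive values were 7.62 in Klra9, 7.38 in Klrd1, 6.42 in Cxcr6, 5.27 in Il7r, 4.84 in Icos, 4.60 in Ly6c2, 4.24 in Ctsw, 4.06 in Cd40lg, 3.84 in Ly6c1, 2.59 in Il12rb2, 2.34 in Gpr183 and 3.07 in B2m. Negative values were −5.12 in Il6st, −3.11 in Ccr9, −2.90 in Pecam1 and −2.57 in Pdcd1. Klra9 and the Ly6C genes were named for their WT rise, which is part of these values. The mutant differences of Klra9, Ly6c1 and Ly6c2 were −0.77, 0.13 and −0.38 and did not pass (limma adjusted p 0.727 to 0.926).

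Among signalling, survival and other genes, positive values were 7.54 in Pydc4, 7.27 in Adam19, 6.62 in Bcl2a1b, 5.66 in Bcl2a1a, 5.33 in Arsb, 4.27 in Slfn1, 3.78 in S100a6, 3.40 in Chn2, 3.27 in S100a11, 3.03 in Rgs2, 2.85 in Dusp1, 2.72 in Gimap4 and 1.69 in Ptpn6. Negative values were −6.33 in Igfbp4, −5.96 in Tmem121, −5.18 in Slc16a5, −5.15 in Kcnf1, −4.63 in Rasgrp1, −4.36 in Fam169b, −4.21 in Ppm1l, −4.17 in Mpp4, −3.70 in Marcksl1, −3.43 in Nck2, −2.98 in Apoe, −2.79 in Themis, −2.50 in Mex3a, −2.46 in Cd247, −2.28 in Mns1 and −1.49 in Kif23. Kcnf1 was near 0 in every WT library compared.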

How the results depend on the processing

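The count of genes called between the WT lineages was 328. With a pseudocount of 0.1 it was 217, with libraries scaled to 1 FPKM total 173, and with WT iNKT and WT γδ alone in the fit 976, while leaving out each library in turn gave 70 to 458. The count for the difference of differences was 780, with 1249 at 1 FPKM total and 372 to 909 on leaving out each library. The other settings, a pseudocount of 5, a filter on low values, quantile normalization, a total over other genes, a trend and WT groups alone, kept both counts, where defined, within 1.5 times. The cause of these shifts was not tested, except that fewer libraries leave fewer degrees of freedom. Scaling to 1 total moved the median log2 fold change of all genes to −0.28.

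Of 9 changes of sign, none was of a called gene. Kcnf1 turned to −0.015 under quantile normalization. Slamf6 turned to −0.24 at 1 FPKM total and −0.054 at 1 total over other genes, with −0.10 to 0.27 on leaving out each library. Egr2 turned to −0.28 and −0.10 under those scalings, with −0.31 to 0.37 on leaving out each library. Leaving out each library gave −5.01 to 0.0039 for Ddx3y and −0.47 to 0.10 for Trbc1. Of 70 named genes called, 28 kept their calls on every omission of 1 library. A pseudocount of 0.1 ended 19 of the 70 calls (limma adjusted p 0.0521 to 0.260), those of Cd28, Mns1, Trav6d-6, Sox13, Lpcat4, Zbtb16, Ly9, S100a11, Cd40lg, Trav11d, Trdv2-1, Trdv1, Ly6c2, Trav15n-2, Gpr183, Lyz2, Arsb, S100a6 and Adam19. Scaling to 1 FPKM total ended 11 (0.0515 to 0.257), those of Cd28, Mns1, Notch3, Lpcat4, Zbtb16, Ly9, Ptpn6, Gpr183, Ctsw, Arsb and Adam19. WT groups alone ended 11 (0.0552 to 0.127), those of Cd28, Lef1, Bcl11b, Kif23, Cd247, Cd1d1, Zbtb16, Ly9, S100a11, Ptpn6 and Gpr183. That fit also gave calls to genes that did not pass in the main fit. Among them were Klra1, Tox2, 5830411N06Rik, Zbtb7b, Trbv29, Trbv13-2, Cdk6, Cd44, Cd24a, Ifit1, Igfbp4 and Pydc4. Their fold changes were the same in both fits, so whether they passed rested on which libraries lent the spread. Quantile normalization ended the calls of Cd28, Ly9 and Ptpn6, and a total over other genes those of Cd28, Lpcat4, Ly9 and Gpr183. Ly9 also did not pass with WT iNKT and WT γδ alone (0.0615).

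No paired analysis was possible because columns of a group share 1 name and carry no replicate number, and WT iNKT has 1 column. With 1 WT iNKT library and an unknown depth, levels near 0 are of uncertain precision, and a spread particular to WT iNKT would not be seen.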

Other observations

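Some surface markers of maturation differed in level between the lineages without passing the test. Cd24a, which encodes the immature thymocyte marker CD24, had 6.75 FPKM in WT iNKT, against 36.9 and 72.8 FPKM in WT γδ (limma adjusted p = 0.0949). Cd44, an adhesion receptor of effector and memory cells, had 99.3 FPKM in WT iNKT, against 15.8 and 20.6 FPKM in WT γδ (limma adjusted p = 0.190), and Ly6a, which encodes Sca-1, had 152 FPKM in WT iNKT, against 12.7 and 26.0 FPKM (limma adjusted p = 0.259). WT iNKT lay beyond both WT γδ libraries in each of these genes, as it did for most genes in the table.

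The genes 5830411N06Rik, Cdk6, Ccnd2 and Hspa1b had large or uneven values without passing. 5830411N06Rik, a member of the lists of γδ lineage and type 17 genes, had 18.0 FPKM in WT iNKT, against 434 and 310 FPKM in WT γδ (log2 fold change −4.28 ± 1.49, limma adjusted p = 0.183). Cdk6, the partner of D-type cyclins, had 8.88 FPKM in WT iNKT, against 48.6 and 52.9 FPKM in WT γδ, whereas Ccnd2, which encodes cyclin D2, had 160 FPKM in WT iNKT, against 103 and 71.1 FPKM. Hspa1b, a heat shock gene, had 23.1 FPKM in WT iNKT, against 9.72 and 4.36 FPKM in WT γδ (limma adjusted p = 0.0833). Of 7 D-type cyclins and inhibitors, 0 were called.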
